A study of Homo sapiens with 8 samples.

Results

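The baseline transcriptomes of 6T-CEM and J.gamma1 were set side by side from the control libraries of the series, which are 4 of 8 libraries in all. The groups were 2 libraries of 6T-CEM and 2 libraries of J.gamma1. They were chosen by their labels, as the libraries in which each cell line carries a control shRNA, named sh-NC here. Both are T-cell acute lymphoblastic leukemia (T-ALL) cell lines, and the study set out to learn what the looping protein LDB1 does in such cells. 6T-CEM is a derivative of CCRF-CEM that was selected for resistance to thioguanine, and J.gamma1 is a derivative of Jurkat known for its lack of the phospholipase PLCG1. Per the study's methods, every library of this comparison comes from cells that went through viral transduction and selection with the control vector, and no untransduced cells entered it. Each leukemia is represented by 1 cell line. The lines were also counted in separate tables, so that the line and the library batch cannot be told apart. The labels do not say that the replicates were separate cultures, and p-values measure only the spread between these libraries.

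T-ALL arises from T-cell progenitors arrested in the thymus, and its subtypes are named after transcription factors that stay active or are switched on out of place. TAL1 and LYL1 are basic helix-loop-helix factors that pair with the E proteins TCF3 and TCF12, and they join LMO1 or LMO2, GATA3 and LDB1 in a complex that can tie an enhancer to a promoter. NOTCH1, the receptor most often mutated in T-ALL, drives HES1 and MYC, while loss of the CDKN2A locus removes a brake on growth.

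The 4 libraries held between 27559805 and 30604977 counts and between 22110 and 23762 genes with at least 1 count. Mitochondrial transcripts made up 2.98% and 4.45% of the counts in 6T-CEM and 3.85% and 4.59% in J.gamma1. All 11 defining T-cell markers had more than 3 counts in at least 1 library of each line, with a summed level of 65413 to 65477 normalized counts in 6T-CEM and 74503 to 75637 in J.gamma1. A normalized count is the count rescaled to a common library size with TMM factors. The summed level of 6 B-cell markers was 990 to 1010 in 6T-CEM and 2114 to 2156 in J.gamma1, that of 7 myeloid markers was 53.8 to 70.3 and 278 to 357, and that of 9 erythroid and megakaryocyte markers was 173 to 205 and 427 to 480. For 9 NK and cytotoxic markers it was 470 to 475 and 1772 to 1964, and for 8 epithelial and fibroblast markers it was 30.3 to 44.9 and 178 to 193. Single genes made up most of the B-cell (CD79A), myeloid (CEBPA) and NK (GZMA) sums in J.gamma1. These sums therefore do not give the direction of the other markers in their lists. In these bulk libraries, fewer cells expressing a gene and less RNA per cell cannot be told apart. LDB1 itself stood at 3114 and 3240 normalized counts in 6T-CEM and 1743 and 1703 in J.gamma1, a log2 difference of 0.88 (SE 0.057) that stayed under the threshold and passed it after a correction for GC content and length, at 1.03.

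To see how far apart the lines lie, all genes were tested at once. Calls required both a log2 difference beyond 1, always taken as 6T-CEM minus J.gamma1, and an adjusted p below 0.05 from edgeR's quasi-likelihood test (Benjamini-Hochberg over all genes tested). Of 17340 genes tested, 5785 (33.4%) were called, 2372 (13.7%) of these higher in 6T-CEM and 3413 (19.7%) higher in J.gamma1. The lines differed far beyond the spread between replicates. The biological coefficient of variation was 9.03%, the Pearson correlation of log2 expression across genes was 0.988 and 0.989 between replicates, and it was 0.784 to 0.785 between the lines. The median absolute log2 difference was 0.65 against a median SE of 0.14. All 4 values of a gene separated the lines in 14644 genes (84.5%), so that groups without overlap are the common case here.

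**Figure D1:**
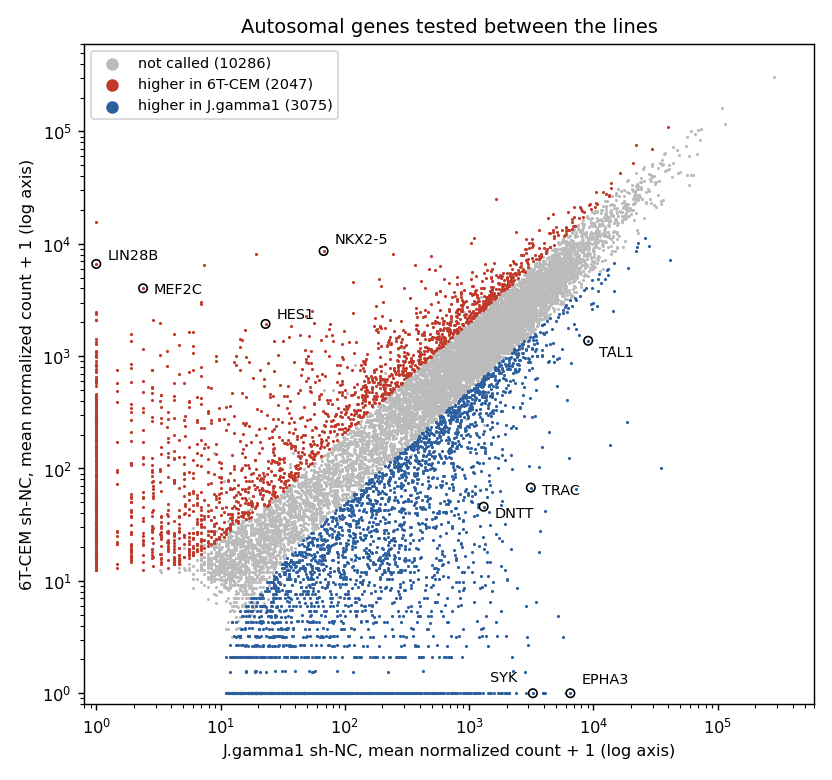
Mean normalized count plus 1 of each autosomal gene tested, in the 2 J.gamma1 sh-NC libraries (x axis, log scale) and the 2 6T-CEM sh-NC libraries (y axis, log scale). Red points are genes called higher in 6T-CEM and blue points genes called higher in J.gamma1. Genes along the left and lower edges had no count in one line, among them LIN28B on the left with 0 counts in J.gamma1 and EPHA3 and SYK at the bottom with 0 counts in 6T-CEM.

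Many genes were used by only 1 of the lines. At most 3 counts in both libraries of one line and at least 100 normalized counts in both libraries of the other were found for 147 autosomal genes expressed in 6T-CEM and 268 expressed in J.gamma1. Of these, 112 and 200 had no count at all in the other line, and 121 and 249 were protein-coding. In the sh-LDB1 libraries, which are other libraries of the same lines, 147 of the 147 and 266 of the 268 were again higher in both libraries of the same line, and 120 and 198 again had at most 3 counts in each library of the other line. Separation of the lines was common among all genes tested, at 84.5% in the control libraries. That share is not given for the sh-LDB1 libraries.

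LIN28B, an RNA-binding protein that blocks maturation of let-7 microRNAs and marks fetal blood formation, had 5657 and 6366 counts in 6T-CEM and 0 and 0 in J.gamma1. Read against a floor of 3 counts per library, this is at least 2301-fold higher in 6T-CEM. The gene lies at chr6:104936616-105083332 of GRCh38 and shares 181 exon bases with an antisense transcript. MEF2C, a MADS-box factor that is switched on in immature T-ALL, had 3474 and 3824 counts in 6T-CEM and 0 and 3 in J.gamma1. CD44, the hyaluronan receptor, stood at 6574 and 6439 normalized counts in 6T-CEM and 6.39 and 6.43 in J.gamma1, with a log2 difference of 9.96 (SE 0.11, adjusted p = 1.08e-10, edgeR).

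The other genes of the same ranking in 6T-CEM, which orders well-expressed autosomal genes by the lowest value in one line over the highest in the other, came from many parts of the cell. DOCK8, an exchange factor for the GTPase CDC42, was at least 788-fold higher, with 1937 and 2355 counts against none. TES, a focal adhesion protein, was at least 764-fold higher, CTCFL, the testis paralog of the insulator protein CTCF, at least 748-fold, and PLIN2, a coat protein of lipid droplets, at least 501-fold. DEPDC1 and the zinc-finger gene ZNF544 were at least 882-fold and at least 468-fold higher. ACOT2, a mitochondrial acyl-CoA thioesterase, SERPINB1, an inhibitor of leukocyte proteases, and TXNIP, an inhibitor of thioredoxin, had no more than 4 counts in any J.gamma1 library and at least 1147 counts in each 6T-CEM library.

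In J.gamma1 the ranking was led by EPHA3, an ephrin receptor kinase at chr3:89107621-89482134. It had 0 and 0 counts in 6T-CEM and 7375 and 6866 in J.gamma1, at least 1875-fold higher. SYK, the kinase that carries antigen receptor signals in B cells and in T-cell progenitors, had 0 and 0 counts in 6T-CEM and 3502 and 3605 in J.gamma1, at least 951-fold higher. The lysosomal membrane protein LAPTM4B was at least 1165-fold higher, the TGF-beta antagonist PMEPA1 at least 1159-fold, the ceramide synthase CERS6 at least 1150-fold and the mRNA-binding protein IGF2BP1 at least 709-fold. Of these, CERS6 shares 3001 and PMEPA1 343 exon bases with antisense genes, which cannot be told apart where counting ignores strand.

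The ubiquitin ligase RNF130, the glutamate receptor partner NETO2, the growth factor PDGFC, the phosphoinositide-binding protein PLEKHA1, TP53I11 and JAKMIP1 completed the list (JAKMIP1 shares 2971 exon bases with C4orf50), each with at most 4 counts in any 6T-CEM library and at least 2372 counts in each J.gamma1 library. All 24 ranked genes had the same direction in the sh-LDB1 libraries, with log2 differences of at least 7.37 in size. The same direction was found for 96.8% of all called genes that could be tested there.

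The transcription factors that define T-ALL subtypes divided the lines. Of 15 listed T-ALL oncogenes that could be tested, 8 were higher in 6T-CEM and 5 in J.gamma1. Here and below, such counts stand beside 13.7% called higher in 6T-CEM and 19.7% higher in J.gamma1 over all genes. They include genes with counts in 1 line alone, which pass the filter on low counts only through that line. The difference of such a gene follows from its being tested. TAL1, on chromosome 1, was expressed in both, at 1294 and 1445 normalized counts in 6T-CEM and 9218 and 8908 in J.gamma1. Both J.gamma1 libraries were far above both 6T-CEM libraries, with a log2 difference of -2.73 (SE 0.063, adjusted p = 2.16e-09, edgeR). Where values stand as pairs below, those of 6T-CEM come first, against those of J.gamma1. The TAL1 paralog LYL1 went the other way, at 1327 and 1303 against 258 and 213 (log2 2.48, SE 0.11). The partners split in the same manner. LMO1 had 0 and 0 counts in 6T-CEM and 241 and 318 in J.gamma1, at least 65.4-fold higher in J.gamma1, while LMO2 stood at 363 and 340 normalized counts in 6T-CEM and 4.57 and 4.59 in J.gamma1 (log2 6.22, SE 0.27).

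NKX2-5, a heart homeobox factor that is switched on by translocation in some T-ALL, was at 8786 and 8450 in 6T-CEM and 63.0 and 69.8 in J.gamma1, a log2 difference of 7.02 (SE 0.079, adjusted p = 1.08e-10, edgeR). Together with MEF2C, the homeobox factor HHEX (log2 4.38, SE 0.091) and the ETS factor ERG (4405 and 4791 against 110 and 121, log2 5.31, SE 0.088) were higher in 6T-CEM. MYC was at 12466 and 12588 in 6T-CEM and 4347 and 4441 in J.gamma1 (log2 1.51, SE 0.045). MYB, at 21022 and 20700 against 20542 and 19121, had a log2 difference of 0.07 (SE 0.048, adjusted p = 0.203, edgeR). SPI1, the myeloid factor PU.1, was low, with 33 and 47 counts in 6T-CEM and 0 and 0 in J.gamma1. HOXA5 was near 0 in 6T-CEM and stood at 184 and 150 in J.gamma1. HOXA9 and HOXA10 were not among the HOX genes tested.

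In the wider LDB1 machinery most genes were not called. Of 24 listed members and partners, 4 were higher in 6T-CEM (LMO2, LYL1, ERG and the low-count LDB2), 3 were higher in J.gamma1 (TAL1, LMO1 and CBFA2T3) and 17 were not called, a share called of 29.2% beside 33.4% over all genes. The E protein TCF3 stood at 7692 and 7867 against 7409 and 7671, with a log2 difference of 0.05 (SE 0.046). CBFA2T3, the ETO-family corepressor ETO2, was at 1125 and 1245 in 6T-CEM and 3196 and 3233 in J.gamma1 (log2 -1.44, SE 0.067). GATA3 (5489 and 6113 against 3686 and 3559, log2 0.68), the single-stranded DNA-binding partner SSBP2 (4430 and 3974 against 4498 and 4504, log2 -0.10) and RUNX1 (15857 and 16922 against 17340 and 16411, log2 -0.04) stayed within the fold threshold.

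Among 27 T-lineage factors, 3 were higher in 6T-CEM, 8 in J.gamma1 and 16 were not called, the last including TCF7, LEF1, BCL11B, IKZF1, ETS1 and SATB1. RUNX3, a factor of the CD8 lineage, was at 2197 and 2388 in 6T-CEM and 444 and 440 in J.gamma1 (log2 2.37, SE 0.077). The quiescence and homing factors KLF2 and FOXO1 were low in 6T-CEM. KLF2 stood at 32.5 and 45.4 there and 566 and 579 in J.gamma1 (log2 -3.87, SE 0.19), and FOXO1 at 23.5 and 20.5 against 561 and 470 (log2 -4.54, SE 0.21). IKZF3, the Ikaros-family factor Aiolos, had 0 and 0 counts in 6T-CEM and 207 and 315 in J.gamma1. RORA varied within J.gamma1, at 250 and 1273, against 119 and 75.7 in 6T-CEM, and was not called. Without the second J.gamma1 library its log2 difference was -1.36 and was called, and without the first it was -3.71 and was called.

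**Figure D2:**
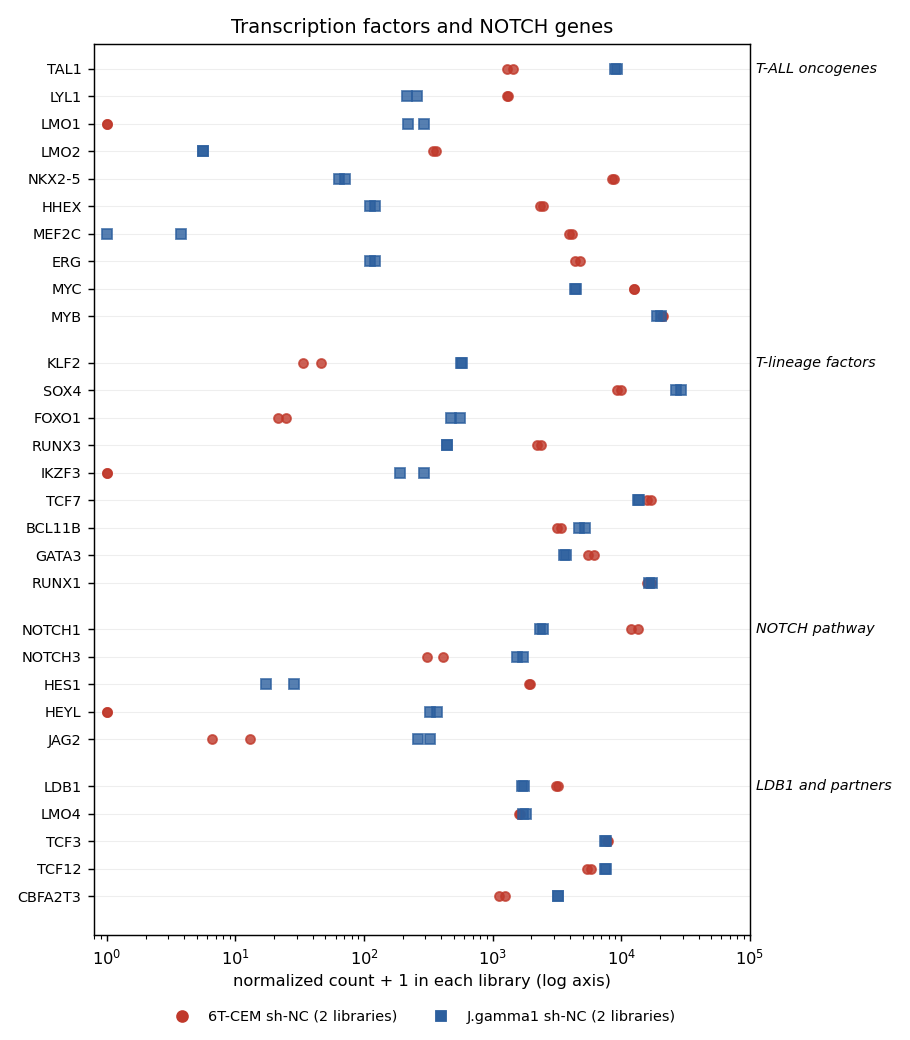
Normalized count plus 1 (log axis) of transcription factors and NOTCH pathway genes, with 1 symbol per library, red circles for 6T-CEM sh-NC and blue squares for J.gamma1 sh-NC. The symbols of a line lie close together, TAL1 is to the right in J.gamma1, and LYL1, LMO2, NKX2-5, MEF2C, ERG, NOTCH1 and HES1 are to the right in 6T-CEM.

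The NOTCH pathway list leaned to J.gamma1 by count, but NOTCH1 and HES1 did not. Of 17 genes tested, 2 were higher in 6T-CEM and 10 in J.gamma1. NOTCH1 stood at 11852 and 13388 in 6T-CEM and 2338 and 2466 in J.gamma1 (log2 2.39, SE 0.067, adjusted p = 6.55e-09, edgeR). HES1, a direct NOTCH target that acts as a repressor, was at 1907 and 1960 in 6T-CEM and 16.4 and 27.6 in J.gamma1 (log2 6.45, SE 0.15). The members higher in J.gamma1 were the receptors NOTCH2 (log2 -1.37, and -0.62 after the correction for GC content and length) and NOTCH3 (306 and 410 against 1552 and 1721, log2 -2.19, SE 0.13), the ligands JAG2, DLL1 and DLL4, and the targets HES4, HEY1, HEY2, HEYL and NRARP. HEYL had 0 and 0 counts in 6T-CEM and 358 and 402 in J.gamma1, at least 97.2-fold higher in J.gamma1. DLL1, DLL4, HEY1 and NRARP had at most 27.4 normalized counts in any library, and the calls of HEY1 and NRARP were lost when 1 library was left out. The regulators RBPJ, MAML1 and FBXW7 were not called.

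Surface genes were split between the lines. Of 28 tested, 12 were higher in 6T-CEM and 7 in J.gamma1. Both co-receptors were higher in 6T-CEM, CD4 at 1055 and 1024 against 159 and 139 (log2 2.80, SE 0.12) and CD8A at 856 and 918 against 40.2 and 35.8 (log2 4.54, SE 0.15). IL7R, the receptor for interleukin 7, was at 1490 and 1566 in 6T-CEM and 457 and 401 in J.gamma1 (log2 1.83, SE 0.092), and CD38 and CD5 were also higher in 6T-CEM (log2 1.62 and 1.19).

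The CD1 genes, which present lipids on cortical thymocytes, did not move as a block. CD1A (212 and 225 against 963 and 931, log2 -2.12), CD1B (log2 -4.03), CD1D (log2 -3.11) and CD1E (445 and 407 against 3126 and 3032, log2 -2.85) were higher in J.gamma1, and CD1C was higher in 6T-CEM (566 and 567 against 101 and 145). CD2, an adhesion receptor of T cells, was at 11.2 and 11.9 in 6T-CEM and 180 and 175 in J.gamma1 (log2 -3.92, SE 0.29). CD96 was higher in J.gamma1 (log2 -4.48, SE 0.094), and the stem cell factor receptor KIT had 2 and 0 counts in 6T-CEM and 339 and 277 in J.gamma1.

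The invariant chains of the T-cell receptor complex were not called, while the alpha, beta and gamma constant regions were. Of 9 genes tested among receptor chains and recombination factors, 4 were higher in 6T-CEM and 3 in J.gamma1, and TRDC, the delta constant region, had 0 counts in all 4 libraries. CD3D (12433 and 11664 against 10214 and 10882, log2 0.19), CD3E (log2 -0.17), CD3G (log2 -0.42) and CD247 (log2 0.09) stayed within the fold threshold. TRAC, the constant region of the alpha chain, was at 66.2 and 67.1 in 6T-CEM and 3129 and 3136 in J.gamma1, a log2 difference of -5.55 (SE 0.089, adjusted p = 5e-10, edgeR). The 2 beta constant regions were used in opposite directions, TRBC1 at 1175 and 1240 against 15965 and 12391 and TRBC2 at 25335 and 25019 against 1383 and 1917. TRGC1 (90.8 and 57.3 against 11.9 and 6.43) and TRGC2 (542 and 416 against 54.8 and 49.6) of the gamma chain were higher in 6T-CEM. The constant regions of each pair are near-identical in sequence, and how reads that fit both were counted is not stated in the sources used here.

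Of the recombination factors, RAG1 and DNTT were called and RAG2 was not. RAG1, which cuts receptor genes, was at 2798 and 3015 in 6T-CEM and 1093 and 1091 in J.gamma1 (log2 1.41, SE 0.065). RAG2, its partner, was at 297 and 237 in 6T-CEM and 469 and 553 in J.gamma1, and its log2 difference of -0.94 (SE 0.16) stayed within the fold threshold. DNTT, the terminal transferase that adds bases at receptor joints, was at 51.6 and 37.9 in 6T-CEM and 1301 and 1313 in J.gamma1 (log2 -4.87, SE 0.14).

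**Figure D3:**
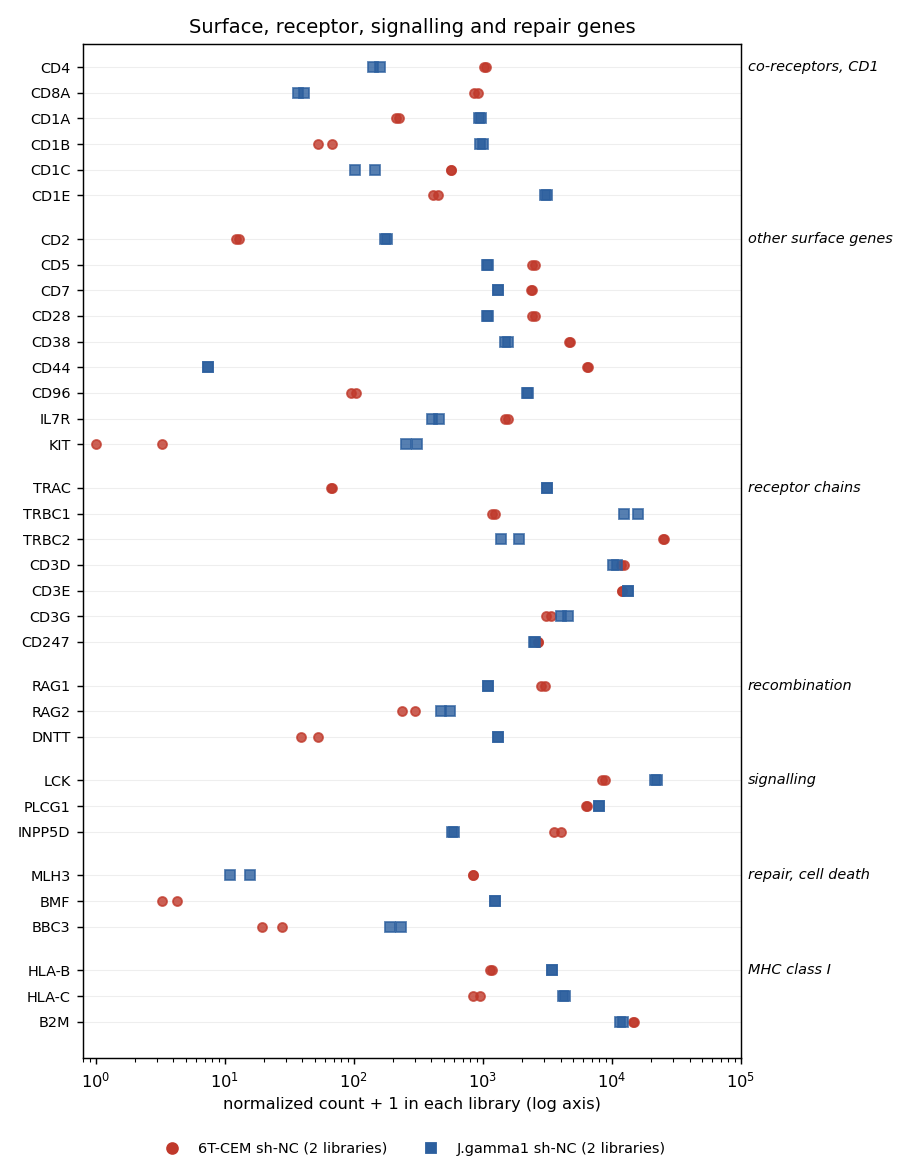
Normalized count plus 1 (log axis) of surface, receptor, signalling, repair and MHC class I genes, with 1 symbol per library, red circles for 6T-CEM sh-NC and blue squares for J.gamma1 sh-NC. The CD3 genes nearly coincide, whereas CD44, CD8A, TRBC2 and MLH3 are to the right in 6T-CEM and TRAC, TRBC1, DNTT, BMF and HLA-B to the right in J.gamma1.

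Of 28 genes of receptor signalling, 2 were higher in 6T-CEM, 4 in J.gamma1 and 22 were not called. The share called was 21.4% beside 33.4% over all genes. The Src-family kinase LCK was at 8915 and 8373 in 6T-CEM and 21471 and 22537 in J.gamma1 (log2 -1.35, SE 0.05). The exchange factor RASGRP1 (log2 -1.54) and the transcription factor NFATC1 (log2 -2.06) were higher in J.gamma1 as well. PLCG1, whose protein J.gamma1 is known to lack, had transcripts in both lines, at 6295 and 6391 in 6T-CEM and 7962 and 7928 in J.gamma1, with a log2 difference of -0.32 (SE 0.044). Counts per gene do not show whether these transcripts encode a whole protein.

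Of 19 genes of the PI3K pathway and its lipid phosphatases, 1 was higher in 6T-CEM and 3 in J.gamma1, a share called of 21.1%. INPP5D, the lipid phosphatase SHIP1, was at 3552 and 4011 in 6T-CEM and 577 and 594 in J.gamma1 (log2 2.69, SE 0.078). The catalytic subunit PIK3CD was higher in J.gamma1 (log2 -1.65, SE 0.082), and AKT1, AKT2 and MTOR stayed within the fold threshold.

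Of 8 DNA mismatch repair genes, 3 were higher in 6T-CEM, 1 was higher in J.gamma1 and 4 were not called. MLH3, one of those higher in 6T-CEM, had 746 and 776 counts in 6T-CEM and 11 and 16 in J.gamma1 (log2 6.07, SE 0.19).

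Of 15 cell cycle control genes tested, 1 was higher in 6T-CEM, 4 were higher in J.gamma1 and 10 were not called. The share called, 33.3%, was near the 33.4% over all genes. CDKN2A and CDKN2B, the neighbouring INK4 genes often deleted in T-ALL, had 0 counts in all 4 libraries. CDKN1A (10.1 and 16.2 against 139 and 163, log2 -3.50), CDKN1B (2662 and 2491 against 5886 and 5584, log2 -1.15) and CDKN1C (4.49 and 3.24 against 174 and 198, log2 -5.55) were higher in J.gamma1. The related inhibitors CDKN2C (4693 and 4531 against 5430 and 5250, log2 -0.21) and CDKN2D (log2 -0.16), as well as MDM2, CDK6 and RB1, stayed within the fold threshold. Among 14 genes of the BCL2 family, BCL2L2 was higher in 6T-CEM and BMF, BBC3 and the low-count BOK were higher in J.gamma1. BMF, a BH3-only activator of cell death, had 2 and 3 counts in 6T-CEM and 1359 and 1343 in J.gamma1. BBC3, the BH3-only protein PUMA, was at 26.9 and 18.4 against 229 and 188 (log2 -3.20, SE 0.28). BCL2, at 1284 and 1504 against 1583 and 1510, had a log2 difference of -0.15 (SE 0.085, adjusted p = 0.147, edgeR).

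The class I heavy chains HLA-B, HLA-C and HLA-F were lower in 6T-CEM, and HLA-E was not called. HLA-B was at 1176 and 1143 in 6T-CEM and 3421 and 3429 in J.gamma1 (log2 -1.56, SE 0.058), HLA-C at 834 and 946 against 4181 and 4368 (log2 -2.26, SE 0.072), and HLA-F had 0 and 0 counts in 6T-CEM and 173 and 128 in J.gamma1. B2M, the invariant light chain, was at 14947 and 14634 against 11516 and 12131 (log2 0.32, SE 0.046). None of the 11 MHC genes tested was called higher in 6T-CEM, and 5 were called higher in J.gamma1, among them HLA-DQB1 with at most 22.8 normalized counts. HLA genes are polymorphic and alike in sequence, and their counts are uncertain for that reason.

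In cytokine signalling, 8 of 26 genes were higher in 6T-CEM and 6 in J.gamma1. STAT5A, which acts downstream of the interleukin 7 receptor, was at 7617 and 7933 in 6T-CEM and 500 and 487 in J.gamma1 (log2 3.98, SE 0.06), while its neighbour STAT5B, with which it shares exon bases, stayed within the fold threshold (log2 0.34). JAK3 (log2 2.84), IL27RA (log2 2.66), IL21R (log2 3.49) and SOCS2 (log2 2.49) were also higher in 6T-CEM. IL4R (7.85 and 16.2 against 527 and 511, log2 -5.41) and IL6ST (log2 -3.15) were higher in J.gamma1, while SOCS3 and IL10RA had 0 counts in 6T-CEM. In J.gamma1, SOCS3 had 137 and 149 counts and IL10RA had 127 and 154.

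Homing receptors also split, with 6 of 18 higher in 6T-CEM and 4 in J.gamma1. CCR4 (1678 and 1886 against 176 and 243, log2 3.09) and CCR7 (729 and 775 against 119 and 108, log2 2.73), receptors that guide T cells to skin and to lymph nodes, were higher in 6T-CEM, as were ITGA6 and ITGB2 (log2 1.85 and 1.45). CXCR4, which holds T-ALL cells in the marrow, was higher in J.gamma1 (log2 -1.04, and -0.93 after the correction for GC content and length, under the threshold).

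Of 14 genes tested in the stem and progenitor list, 7 were higher in J.gamma1 and 3 higher in 6T-CEM, LIN28B, MECOM and LMO2. Members with counts in 1 line alone, such as LIN28B and MEIS1, passed the filter on low counts only through that line. Their difference follows from their being tested. MEIS1, a homeobox partner of HOX proteins, had 0 and 0 counts in 6T-CEM and 213 and 205 in J.gamma1. It shares 1437 exon bases with the antisense gene MEIS1-AS2, which cannot be told apart where counting ignores strand. IGF2BP3, a target of let-7, was at 783 and 745 against 1607 and 1598 (log2 -1.07, SE 0.073).

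Of 19 genes of nucleotide salvage and drug transport, 3 were higher in 6T-CEM and 2 in J.gamma1. HPRT1, the X-linked enzyme that activates thioguanine and whose loss of activity gives resistance, had transcripts in both lines, at 1443 and 1490 against 2418 and 2153 in J.gamma1. Its log2 difference was -0.64 (SE 0.073), and -1.33 after the correction for GC content and length, where it was called. TPMT, which methylates and inactivates thiopurines, was at 362 and 306 in 6T-CEM and 1232 and 1224 in J.gamma1 (log2 -1.88, SE 0.10). ABCB1, the multidrug efflux pump, had 652 and 750 counts in 6T-CEM and 0 and 0 in J.gamma1, at least 265-fold higher in 6T-CEM.

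Interferon response genes showed no common direction, with 5 of 21 higher in each line. CGAS, the sensor of cytosolic DNA, was at 1170 and 1048 in 6T-CEM and 5.48 and 0 in J.gamma1, whereas STING1 downstream of it was at 973 and 926 against 835 and 881 (log2 0.15, SE 0.082). IFI44 was higher in 6T-CEM (589 and 501 against 33.8 and 34.0) and IFI6 in J.gamma1 (log2 -2.10, SE 0.14).

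Genes that define other lineages were low in general but not absent. PAX5 had 69 and 88 counts in 6T-CEM and 0 and 0 in J.gamma1, and EBF1, with which PAX5 specifies B cells, had 0 and 0 against 103 and 86, while MS4A1 was at 0 in all 4 libraries. CD79A was at 682 and 676 against 1894 and 1934 (log2 -1.50, SE 0.07). Of 5 NK and cytotoxic markers tested, NCAM1, PRF1, GZMA and GZMK were higher in J.gamma1 and NKG7 (371 and 327 against 59.4 and 33.1) was higher in 6T-CEM. GZMA, a cytotoxic granule protease, was at 61.7 and 110 against 1358 and 1511 (log2 -4.05, SE 0.22). Of 3 myeloid markers tested, the factor CEBPA was higher in J.gamma1, at 13.5 and 9.73 against 267 and 336 (log2 -4.69, SE 0.28), LYZ was higher in 6T-CEM with 14 and 12 counts against 2 and 0, and CSF1R was not called. Of 9 common reference genes, only GUSB was called, higher in 6T-CEM (log2 1.12, and 0.97, under the threshold, with library totals for scaling), and ACTB had a log2 difference of 0.03 (SE 0.043).

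**Figure D4:**
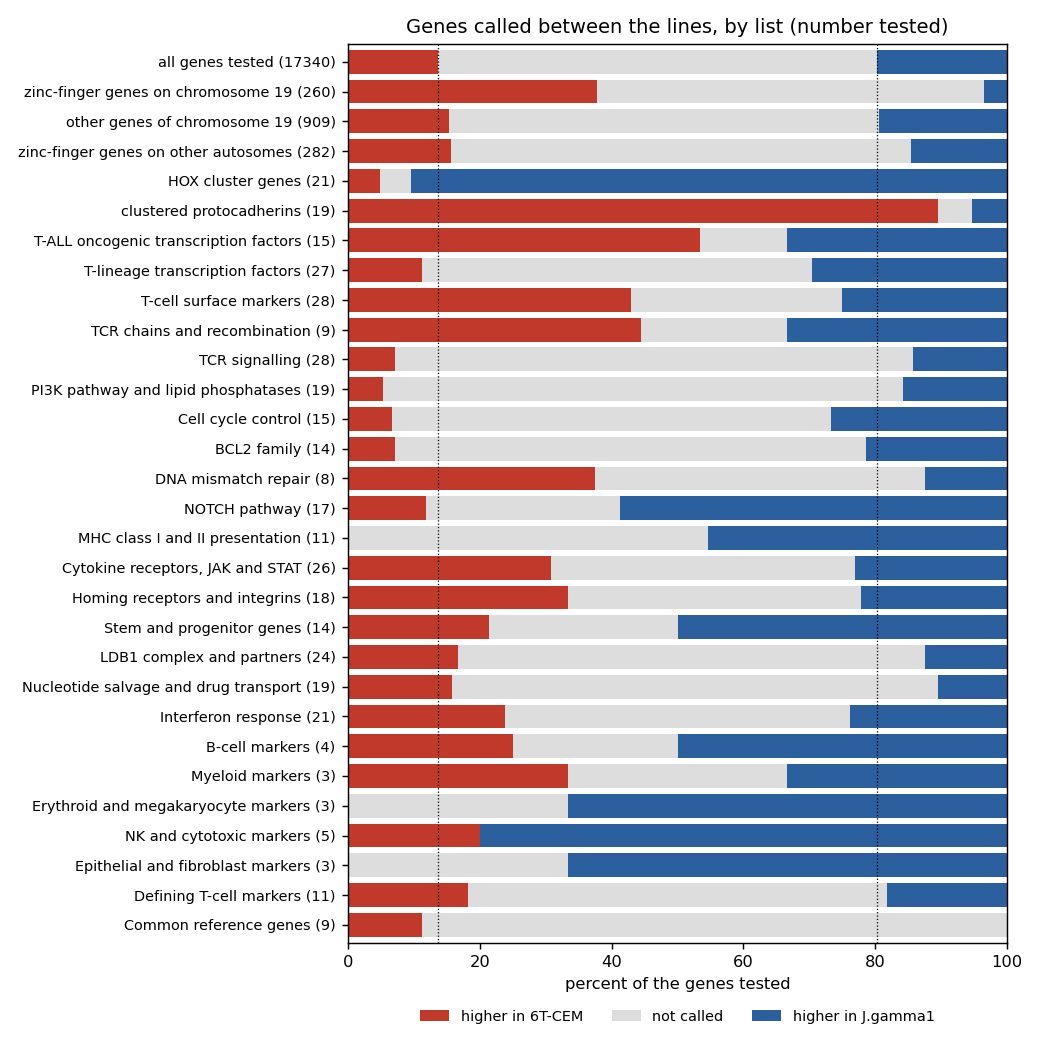
Percent of the genes tested in each list that were called higher in 6T-CEM (red), not called (grey) or called higher in J.gamma1 (blue), with the number tested in parentheses. Dotted lines mark the 13.7% and 19.7% called in each direction over all genes, and zinc-finger genes of chromosome 19 and clustered protocadherins lean to 6T-CEM while HOX genes lean to J.gamma1.

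Over the 24 lists, 373 genes were named, 319 could be tested and 152 were called, 88 higher in J.gamma1 and 64 in 6T-CEM. The lists were chosen for their bearing on T-ALL with earlier results of these data known, and their share called is a description, to be read beside the 33.4% over all genes.

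Position in the genome brought out a further difference, in zinc-finger genes of chromosome 19. These genes encode DNA-binding repressors, many with a KRAB domain, and arose by repeated duplication, so that they sit in rows of close relatives. Of the 147 genes used by 6T-CEM alone, 39 (26.5%) lie on chromosome 19, against 9 of the 268 (3.36%) used by J.gamma1 alone. Among all 15408 autosomal genes tested, 1169 lie on this chromosome. Of 260 genes on chromosome 19 with a zinc-finger symbol (ZNF, ZSCAN, ZKSCAN or ZFP), 98 (37.7%) were called higher in 6T-CEM and 9 (3.46%) in J.gamma1, and 44 of the 98 had at most 3 counts in each J.gamma1 library. These 44 passed the filter on low counts only through 6T-CEM, so that their difference follows from their being tested. None of the 260 had at most 3 counts in each 6T-CEM library. Zinc-finger genes elsewhere on the autosomes had 44 of 282 (15.6%) higher in 6T-CEM and 41 (14.5%) in J.gamma1, and the other genes of chromosome 19 had 139 of 909 (15.3%) and 177 (19.5%). The sh-LDB1 libraries gave 104 and 3 of 262 zinc-finger genes on chromosome 19, and 56 of the 104 had at most 3 counts in J.gamma1, with the same limit. Of 313 such genes in the tables, 53 were not tested. This family was picked out after its values were seen, and close relatives may share reads.

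The 10 Mb between 20000001 and 30000000 of chromosome 19 was the region with the second largest distance from the median of the autosomes. Its 56 genes tested had a median log2 difference of 1.07, 29 were higher in 6T-CEM and 6 in J.gamma1. Among them were 11 zinc-finger genes with at most 3 counts in each J.gamma1 library. These passed the filter on low counts only through 6T-CEM, so that their difference follows from their being tested. The median and the rank of the region include them. Protein-coding zinc-finger genes without expression in J.gamma1 alternated with others that both lines expressed. From the start of the region, ZNF90 (495 and 552 counts against 0 and 1), ZNF486 (1262 and 1181 against 0 and 0), ZNF737 (433 and 426 against 2 and 2), ZNF626 (186 and 187 against 0 and 0), ZNF66 (88 and 74 against 0 and 0) and ZNF85 (296 and 284 against 0 and 0) had counts in 6T-CEM and at most 2 in any J.gamma1 library. The next in line, ZNF430 (773 and 763 against 1146 and 1076 counts), ZNF714 (1483 and 1496 against 3594 and 3509), ZNF431 (997 and 1122 against 1928 and 1647) and ZNF708 (491 and 450 against 403 and 455), were expressed in both lines. Further along, ZNF738, ZNF493, ZNF98, ZNF492 and ZNF730 again had 0 counts in both J.gamma1 libraries and between 15 and 540 in those of 6T-CEM, while ZNF100, ZNF724, ZNF675 and ZNF254 stayed within the fold threshold. Of the genes with counts in both lines, ZNF43 (log2 1.10), ZNF91 (log2 1.32), ZNF681 (log2 1.68) and ZNF726 (log2 3.56) were higher in 6T-CEM, and ZNF429 (log2 -1.25) was higher in J.gamma1.

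**Figure D5:**
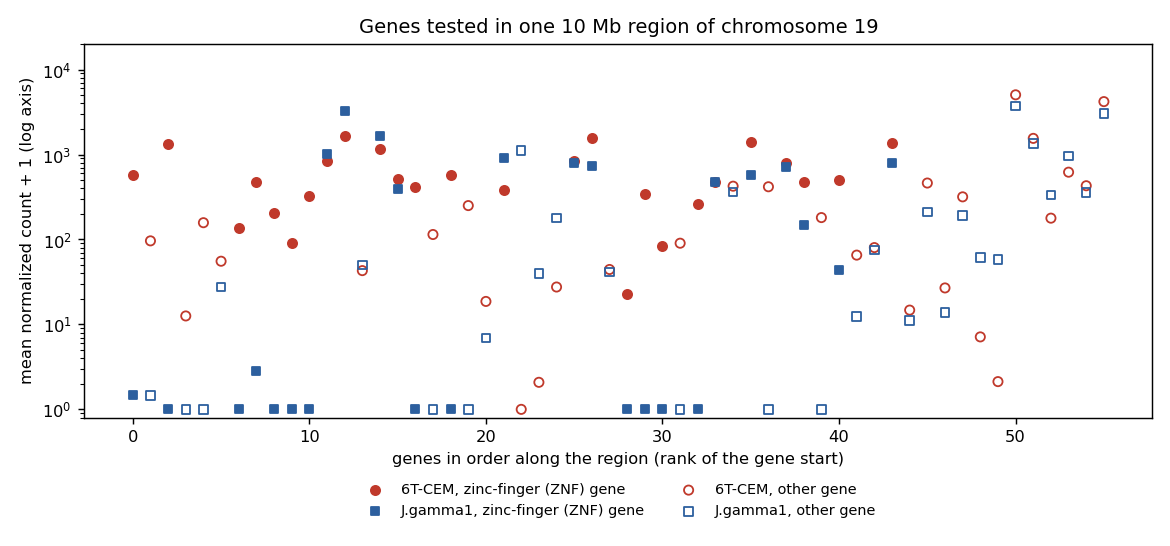
Mean normalized count plus 1 (log axis) of the 56 genes tested in the 10 Mb of chromosome 19, in order of their start along the x axis. Red circles are 6T-CEM sh-NC and blue squares J.gamma1 sh-NC, filled for zinc-finger genes and open for others, and runs of zinc-finger genes at the floor in J.gamma1 are interrupted by genes with counts in both lines.

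Promoters of neighbours with and without expression in J.gamma1 are shown so that their letters can be compared. The following are the 100 bases before the RefSeq start in GRCh38.p14, 5′ to 3′ on the strand of the gene, with capitals for CCAAT, or for ATTGG where it lies on the other strand. The first 3 had at most 3 counts in each J.gamma1 library, and the last 2 were expressed in both lines.
ZNF486 (chr19:20167114-20167213, plus strand): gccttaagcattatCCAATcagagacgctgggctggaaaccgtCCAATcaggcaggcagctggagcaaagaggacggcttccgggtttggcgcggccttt
ZNF493 (chr19:21397033-21397132, plus strand): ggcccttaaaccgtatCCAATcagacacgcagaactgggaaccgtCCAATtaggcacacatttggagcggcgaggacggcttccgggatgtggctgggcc
ZNF90 (chr19:20077900-20077999, plus strand): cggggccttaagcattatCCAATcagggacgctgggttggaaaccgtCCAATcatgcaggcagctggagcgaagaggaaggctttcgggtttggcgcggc
ZNF431 (chr19:21141940-21142039, plus strand): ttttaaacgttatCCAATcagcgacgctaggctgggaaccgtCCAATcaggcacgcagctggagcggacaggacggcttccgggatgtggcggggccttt
ZNF43 (chr19:21836183-21836282, minus strand): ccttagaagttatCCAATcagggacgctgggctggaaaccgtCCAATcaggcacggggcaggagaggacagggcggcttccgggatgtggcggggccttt
A promoter was found for 9 of 11 zinc-finger genes of the region with at most 3 counts in J.gamma1, and for 13 of 13 expressed in both lines. CCAAT occurred on either strand of the 100 bases in 9 of 9 and in 13 of 13, against 18.7% of all 27305 promoters. Each promoter printed above has 2 such stretches, while that of ZNF254, expressed in both lines and not printed, has 1. The number of CG dinucleotides had a median of 7 (range 5 to 10) in the former, 6 (range 2 to 9) in the latter and 5 over all promoters. These counts describe the letters of the reference and not the state of the promoters in the cells.

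Away from chromosome 19, gene clusters of 2 other families leaned to one line each. Of 21 HOX genes tested, which set position along the body and are partly kept on in leukemia, 19 were higher in J.gamma1, 1 in 6T-CEM and 1, HOXB4, was not called. HOXC10 had 0 and 0 counts in 6T-CEM and 1043 and 1125 in J.gamma1, HOXD13 0 and 0 against 598 and 569, and HOXA7 0 and 2 against 777 and 770. HOXB7 was expressed in both, at 137 and 141 normalized counts in 6T-CEM and 676 and 753 in J.gamma1 (log2 -2.36, SE 0.13), and HOXB2 had 60 and 65 counts in 6T-CEM and 0 and 4 in J.gamma1. In the sh-LDB1 libraries 20 of 22 were higher in J.gamma1.

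Clustered protocadherins of chromosome 5, cell adhesion proteins known from neurons, leaned the other way, with 17 of 19 higher in 6T-CEM and 1, PCDHGB6 at 7.85 and 2.16 against 32.9 and 10.1, higher in J.gamma1. PCDHGB2 had 275 and 436 counts in 6T-CEM and 0 and 0 in J.gamma1, PCDHGB4 327 and 286 against 0 and 0, and PCDHB2 152 and 157 against 0 and 3. Genes of the gamma cluster share their last exons, which leaves the split of reads between them uncertain. Both families were picked out after their values were seen, and the genes tested are not all of their members. Of 39 HOX genes, 18 were not tested, and 14 of the 21 tested had at most 3 counts in each 6T-CEM library. Of 60 clustered protocadherins, 41 were not tested, and 14 of the 19 tested had at most 3 counts in each J.gamma1 library. A gene with counts in one line alone passes the filter on low counts only through that line, so that its difference follows from its being tested. DESeq2, which tested more of the low genes, called 21 of 33 HOX genes higher in J.gamma1 and 18 of 42 protocadherins higher in 6T-CEM, with 11 and 24 not called.

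Other regions stood apart as well. Autosomes had median log2 differences between -0.25 (chromosome 8) and 0.46 (chromosome 20), with -0.04 over all autosomal genes. Of 244 regions of 10 Mb, 223 lay within 0.5 of that median. The region farthest from it was the first 10 Mb of chromosome 9, where 34 genes had a median of -1.16, 19 of them higher in J.gamma1 and 1, DOCK8, higher in 6T-CEM. Examples from this region were chosen after their values were seen. The lipoprotein receptor VLDLR was at 317 and 304 in 6T-CEM and 1436 and 1522 in J.gamma1, and the adenylate kinase AK3 at 659 and 560 against 2233 and 2286. The chromatin remodeler SMARCA2 was at 923 and 993 against 2138 and 2064, and CD274, the checkpoint ligand PD-L1, had 0 and 0 counts against 37 and 37. After it and the region of chromosome 19 described above came 10000001 to 20000000 of chromosome 8 (29 genes, median -0.90), 180000001 to the end of chromosome 5 (21 genes, median -0.88) and 60000001 to the end of chromosome 20 (63 genes, median 0.72). In the sh-LDB1 libraries the medians were -0.97 for chromosome 9, 1.28 for chromosome 19, -0.36 for chromosome 8 and 0.50 for chromosome 20, and none was computed for chromosome 5.

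The sh-LDB1 libraries share no sample with the control libraries, but come from the same lines and count tables. Of the 5785 genes called, 5400 could also be tested there, 5227 (96.8%) had the same direction and 3919 (72.6%) were called in the same direction, where 29.3% of all 17547 genes tested were called. In the opposite direction 16 were called. In these libraries the log2 difference of TAL1 was -1.57, of NOTCH1 2.74 and of TRAC -4.02, and those of LMO2 and NKX2-5 were 6.64 and 6.87.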

How the data were processed

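RNA was extracted with TRIzol, and libraries were made with a TruSeq kit and sequenced, per the labels. According to the submitters' processing notes, reads were mapped to hg38 with HISAT2 2.2.0 and processed with StringTie. The deposited values are whole-number counts per gene for each library. The annotation release, strand setting and handling of multiply mapped reads are not given in the sources used here. The tables of the lines were joined by Ensembl gene ID. Columns were assigned by name, and gene positions came from GENCODE 44.

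Genes were filtered with filterByExpr, scaled with TMM factors and tested with edgeR 4.0.16 (quasi-likelihood, R 4.3.3, limma 3.58.1), with Benjamini-Hochberg adjustment over all genes tested. The adjusted p threshold was 0.05 and the log2 threshold 1. Named genes were the members of the gene lists, LDB1, the 12 autosomal protein-coding genes per line with the highest ratio of lowest to highest value (mean of at least 500 normalized counts, floor of 3 counts per library), and the 5 regions of 10 Mb farthest from the median. Zinc-finger, HOX and protocadherin families were added after values were seen. Members and lists were chosen with earlier results of these data known. Alternatives were DESeq2 1.42.0, other scaling, filters and thresholds, a replicate block and leaving out each library. The scripts were tested on simulated data, where the share of false calls lay above the nominal level for edgeR and for DESeq2. Depth sets counting error only, and all per-library depths were within the range given above. Results of some list members are not reported here, while the counts over each list include them.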

Additional observations from a re-analysis of the deposited data

How the results depend on the processing

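The count of 5785 genes called between the lines became 11959 without a fold threshold and 3458 beyond a log2 difference of 2. The other alternatives gave between 4262 (at least 50 counts in each library of a line) and 6003 (all 8 libraries in the fit), and leaving out 1 library gave 5449 to 5679. DESeq2 called 5459 genes. Scaling by library totals moved the median log2 difference of all genes from -0.034 to -0.19 and the calls from 2372 and 3413 to 2022 and 3849. The 415 genes at or near 0 in 1 line became 646 with at most 10 counts allowed there, 130 with at least 500 normalized counts in the other line, and 458 to 478 when 1 library was left out. The median of chromosome 8 was -0.22 with the filter at 50 counts and -0.28 to -0.24 when 1 library was left out, and that of chromosome 20 was 0.51 and 0.44 to 0.49. List members called numbered 128 to 162 over all alternatives, against 152, and calls shared with the sh-LDB1 libraries 3626 to 3950, against 3919. Single lists were less stable than this total. Results moved in 19 of the 24 lists with library totals for scaling and in 15 after the correction for GC content and length. With DESeq2 they moved in 14, and with the filter at 50 counts in 12. Among the named genes that had a value under a setting, no direction reversed, 0 to 11 lost their call and 0 to 17 gained one. The 17 came with the correction for GC content and length. With at least 50 counts required in each library of a line, 32 named genes had no value, 24 of them called otherwise, and leaving out 1 library left 0 to 2 without a value. Leaving out a library leaves a line with 1, which is assumed to vary like the other line. The causes of these shifts were not tested.

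With the replicate number as a block, 5495 genes, 149 list members and 3786 genes shared with the sh-LDB1 libraries were called. Deviations of same-numbered libraries had a correlation of -0.007 across genes. A single correlation over all genes cannot show whether same-numbered libraries were handled together.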
